A study of Mus musculus with 11 samples.

Results

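The 10 genes described here belong to the bile secretion machinery of cholangiocytes, the epithelial cells that line the bile ducts, and were followed through a bout of cholestatic injury and its recovery. They were chosen by name, for their known roles: the hormone and bile acid receptors Sctr and Gpbar1, the calcium release channel Itpr3, the chloride channels Cftr and Ano1, the water channel Aqp1, the anion exchanger Slc4a2, and the uptake and breakdown proteins Slc10a2, Slc5a1 and Ggt1. The choice was made with earlier results of these data known. All 10 genes were found among the 43346 genes of the table. RNA came from livers of wildtype male C57BL/6 mice aged 14 to 16 weeks, dissociated and passed over 2 columns with EpCAM beads, and polyA RNA was sequenced. There were 3 R15 libraries (10 days of DDC diet, then 15 days of chow), 4 DDC libraries (10 days of DDC diet) and 4 Control libraries (chow). DDC is a porphyrin-inducing compound that causes cholestatic injury and growth of small bile ducts in mice. No group carried a transgene or deletion, and the labels number the libraries as replicates without saying whether mice were pooled, so the p-values measure the spread between these libraries.

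Cholangiocytes modify the bile that hepatocytes make. Secretin binds its receptor at the basolateral side and raises cAMP, which opens CFTR in the apical membrane, and chloride leaving through CFTR is taken back by the exchanger AE2 (Slc4a2) in return for bicarbonate, with water following through aquaporins. A second route runs from extracellular ATP through calcium release by inositol trisphosphate receptors to the calcium-activated chloride channel TMEM16A (Ano1). Cholangiocytes also take back part of what bile carries: bile acids through ASBT (Slc10a2), glucose through SGLT1 (Slc5a1), and the glutamate and other amino acids freed when Ggt1 starts the breakdown of glutathione.

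Values are FPKM, read counts scaled to gene length and sequencing depth, so levels can be set side by side between genes. Fold changes are differences of log2(FPKM + 1) and understate the change of low genes. They were tested with limma over the 15264 genes that reached FPKM 1 in 3 or more libraries, and "past the threshold" means a Benjamini-Hochberg adjusted p under 0.05. Of the 10 genes 9 passed this filter, each with FPKM above 1 in all 11 libraries and at least 747 reads, and Gpbar1 did not. Errors after ± are SDs for group means and standard errors for log2 changes, with n = 3 for R15, n = 4 for DDC and n = 4 for Control throughout.

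The libraries held between 49339240 and 72929107 reads and some stood apart from their group. Pancreatic acinar genes (a list of 17) took 0.178% of reads in R15 3, 0.128% in DDC 1, and 1.1%, 0.295% and 0.136% in Control 1, Control 2 and Control 3, against at most 0.0022% in the other 6 libraries. Gastric mucous genes (7) summed to 11250 FPKM in Control 3 and to between 67.27 and 161.4 FPKM elsewhere. Intestinal epithelial genes (8) summed to 157.2 FPKM in Control 1 and 260.5 in Control 3, and to between 25.04 and 58.22 FPKM elsewhere. The 12 endothelial markers summed to 83.1, 266 and 211 FPKM in R15, to between 39.3 and 79.7 FPKM in DDC, and to 122.7, 166, 525 and 373 FPKM in Control 1 to 4. The 14 macrophage markers summed to between 210 and 890 FPKM in R15, 1649 and 2784 FPKM in DDC, and 217.6 and 249.5 FPKM in Control. All 20 cholangiocyte markers were detected above the filter. Their sum lay between 11810 and 13080 FPKM in R15, 13350 and 14980 in DDC, and 11820 and 14280 in Control. In such bulk libraries, fewer cells of a type and less RNA per cell cannot be told apart.

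Promoter windows from RefSeq (build GRCm38.p6, 250 bases before to 50 after a start site) matched 9 of the 10 genes, with 13 windows in all, and Sctr had no entry. They were searched on both strands for CCAAT, the box bound by NF-Y, which the study's title names; for TGACGTCA, the full cAMP response element; and for the full palindromic HNF1 element and the FXR inverted repeat. These motifs do not contain one another. CCAAT was in 3 of the 13 windows, those of 2 genes, and in 37.4% of all 32851 mouse windows. The cAMP response element was in 1 of 13, a window of Ggt1, and in 1.79% of all windows. The HNF1 and FXR elements were in none of the 13 and in 0.00913% of all windows each. At that rarity, their absence from 13 windows says nothing about these genes. Only exact matches were counted, so near matches to any motif were not. Shown are the window of Cftr, the 2 windows of Ggt1 that hold different motifs, and that of Slc5a1, which holds none of the 4 motifs. Motif matches are in capitals; all 4 windows are on the plus strand. In Cftr, CCAAT lies on the opposite strand and begins 1 base after the start site. In the first window of Ggt1, a match on each strand overlaps the other, beginning 89 and 86 bases before the start. In the other window of Ggt1, the cAMP response element begins 59 bases before the start.
Cftr, chr6:18170437-18170736: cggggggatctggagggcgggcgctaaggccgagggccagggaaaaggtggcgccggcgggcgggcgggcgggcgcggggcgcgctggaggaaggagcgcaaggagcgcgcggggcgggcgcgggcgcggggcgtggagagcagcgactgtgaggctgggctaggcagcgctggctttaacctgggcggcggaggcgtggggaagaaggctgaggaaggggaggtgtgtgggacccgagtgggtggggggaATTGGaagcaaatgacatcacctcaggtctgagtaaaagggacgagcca
Ggt1, chr10:75563882-75564181: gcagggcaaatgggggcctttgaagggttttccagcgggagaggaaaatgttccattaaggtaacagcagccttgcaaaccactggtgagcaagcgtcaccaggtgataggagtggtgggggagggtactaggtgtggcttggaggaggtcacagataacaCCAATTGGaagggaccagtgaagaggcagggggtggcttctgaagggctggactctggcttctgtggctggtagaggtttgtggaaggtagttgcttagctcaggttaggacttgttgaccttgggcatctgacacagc
Ggt1, chr10:75571310-75571609: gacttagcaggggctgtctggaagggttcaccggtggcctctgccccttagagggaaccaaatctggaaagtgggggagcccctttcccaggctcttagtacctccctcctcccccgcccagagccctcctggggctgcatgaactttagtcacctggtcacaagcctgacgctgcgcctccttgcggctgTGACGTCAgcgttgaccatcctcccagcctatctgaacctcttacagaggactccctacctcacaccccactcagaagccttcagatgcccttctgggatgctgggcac
Slc5a1, chr5:33103969-33104268: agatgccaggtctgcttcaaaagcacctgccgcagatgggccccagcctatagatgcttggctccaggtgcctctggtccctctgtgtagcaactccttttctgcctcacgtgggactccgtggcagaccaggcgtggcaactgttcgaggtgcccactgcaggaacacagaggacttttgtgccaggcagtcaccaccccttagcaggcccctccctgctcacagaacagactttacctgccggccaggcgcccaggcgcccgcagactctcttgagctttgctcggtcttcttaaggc
The matches describe letters only; binding was not measured.

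In DDC cholangiocytes, 5 of the 9 genes tested were lower than in Control (Aqp1, Slc5a1, Ggt1, Slc4a2 and Ano1) and 2 were higher (Cftr and Itpr3), while Sctr and Slc10a2 did not pass the threshold. The largest differences were a 5.57-fold lower Aqp1 and a 2.08-fold lower Slc5a1 on the FPKM + 1 scale. Past the threshold were 65.4% of all genes tested, 33.5% higher and 31.9% lower, and 7 of 9 genes stand beside that background. Libraries of DDC and Control did not overlap for 5 of the 9 (1 higher, 4 lower), and for 61.3% of all genes (31.5% higher, 29.8% lower). The median log2 change was -0.24 for the 9 genes and 0.003 for all genes tested. In R15 against DDC, 4 genes were higher (Slc5a1, Ggt1, Slc4a2 and Ano1) and 1 was lower (Itpr3), against a background of 62.2% (33.4% higher, 28.8% lower), with a median of 0.21 beside 0.035 for all genes. Here 5 of 9 did not overlap (3 higher, 2 lower), and 66.6% of all genes did not (35.6% higher, 31% lower). In R15 against Control, Slc5a1 alone passed, being lower, against a background of 9.58% (6.87% higher, 2.72% lower), with a median of -0.07 beside 0.045. It was also the 1 gene of 9 without overlap, beside 21.3% of all genes (15% higher, 6.3% lower). The first 2 comparisons share the DDC libraries, and each pair of the 3 shares a group, so they are not independent.

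**Figure D1:**
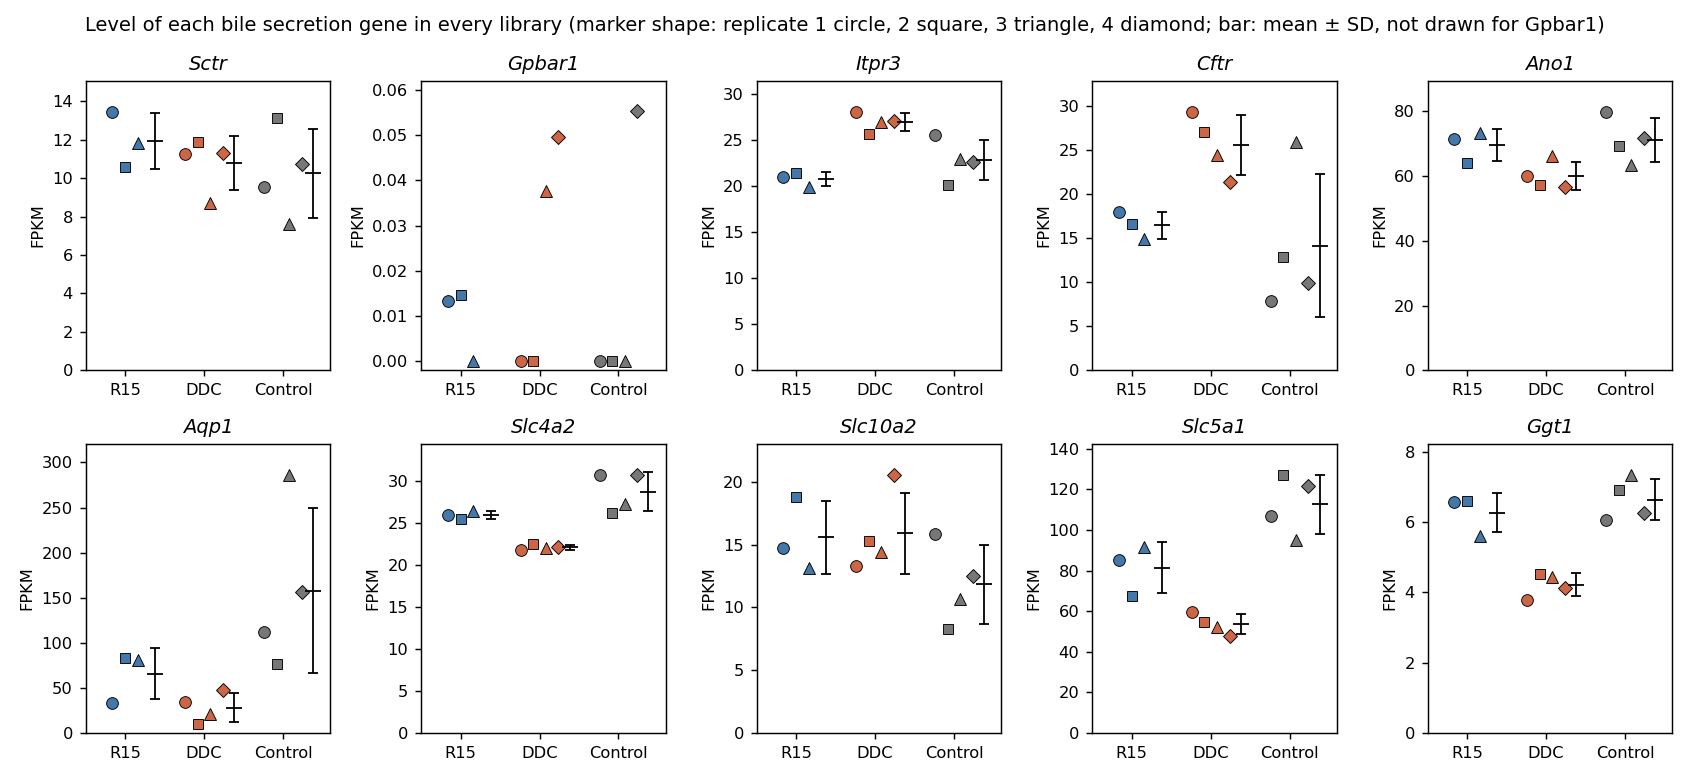
FPKM of each of the 10 genes in every library, with R15 left, DDC in the middle and Control right in each panel; points are libraries and bars are group means with SD (n = 3, 4 and 4), not drawn for Gpbar1. Slc5a1, Ggt1 and Slc4a2 sat lower in all 4 DDC libraries than in all others, Aqp1 spanned 10.1 to 286 FPKM, and Gpbar1 stayed at or below 0.0553 FPKM.

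**Figure D2:**
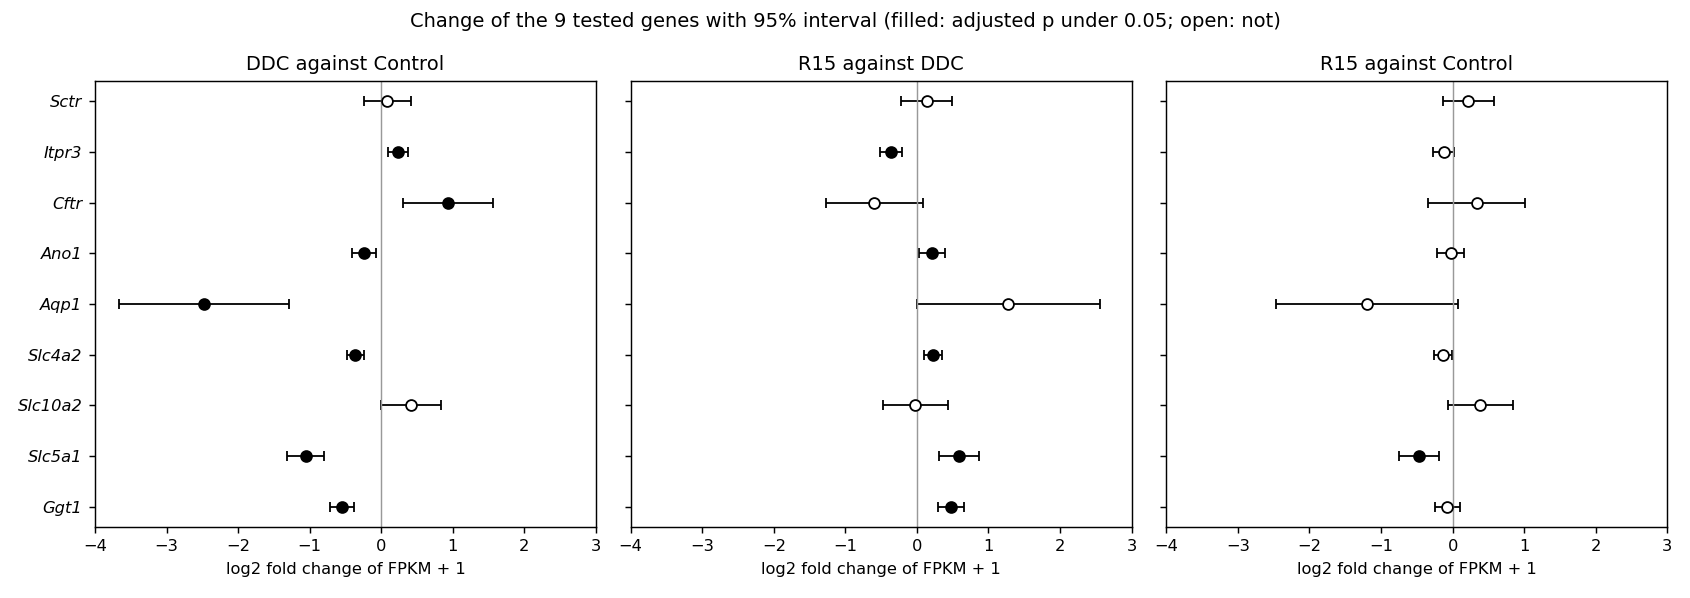
Log2 changes of the 9 genes tested, with 95% intervals, in the 3 comparisons; filled points passed an adjusted p of 0.05. Aqp1 had the largest change and the widest interval in DDC against Control (-2.48, interval -3.66 to -1.30), and Slc5a1 is the only filled point in R15 against Control.

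Sctr (ENSMUSG00000026387, chr1:120006894-120063536, plus strand, mm10), the Gs-coupled receptor for secretin, passed the threshold in no comparison. Its FPKM was 13.4, 10.6 and 11.8 in R15, 11.3, 11.9, 8.73 and 11.3 in DDC, and 9.53, 13.1, 7.62 and 10.7 in Control. The 3 groups overlapped. The log2 change was 0.08 ± 0.15 in DDC against Control (95% interval -0.24 to 0.41, adjusted p = 0.64), so the interval holds no change larger than 0.41. In R15 against DDC it was 0.14 ± 0.16 (interval -0.219 to 0.489, adjusted p = 0.48). R15 against Control gave 0.22 (interval -0.135 to 0.572, adjusted p = 0.38).

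Gpbar1 (ENSMUSG00000064272, chr1:74278550-74279624, plus strand), which encodes the bile acid receptor TGR5, was at the limit of detection. It had 1, 1 and 0 reads in R15, 0, 0, 2 and 3 in DDC, and 0, 0, 0 and 4 in Control, 11 reads in all. In 6 of the 11 libraries it was at 0, and a count of 0 allows up to 3 reads, an FPKM of 0.0382 (DDC 1) to 0.0483 (Control 2) in those 6 libraries, for counting error only. No difference was detectable at this depth. Exact 2-sided permutation tests over libraries gave p = 1.0 for DDC against Control (smallest possible 0.029), p = 0.571 for R15 against DDC (smallest possible 0.057) and p = 1.0 for R15 against Control (smallest possible 0.057).

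Itpr3 (ENSMUSG00000042644, chr17:27057304-27122223, plus strand), the type III inositol trisphosphate receptor that lies beneath the apical membrane of cholangiocytes, was higher in DDC. Its FPKM was 20.99, 21.4 and 19.9 in R15, 28.1, 25.7, 27.0 and 27.1 in DDC, and 25.5, 20.2, 23.0 and 22.6 in Control. Every DDC library was above every R15 and every Control library, by a small margin over Control 1. The log2 change was 0.23 ± 0.06 in DDC against Control (95% interval 0.10 to 0.37, adjusted p = 0.0073). It fell by 0.36 ± 0.07 in R15 against DDC (adjusted p = 0.0011). R15 against Control missed the threshold (-0.13, interval -0.28 to 0.02, adjusted p = 0.24). With each library rescaled to one FPKM total, the DDC change was 0.15 and missed the threshold (adjusted p = 0.0501; over all alternatives that p ranged from 0.0012 to 0.0501). The annotation places the antisense Itpr3os (at most 0.0388 FPKM in any library) and the microRNA gene Mir7677 over Itpr3. Mir7677 was listed at 33.7 to 40.8 FPKM in R15, 42.6 to 47.2 in DDC and 36.4 to 42.2 in Control, above Itpr3 and, like it, highest in DDC. Mir7677 lies on the same strand as Itpr3 and overlaps its exons, so its values may hold reads of Itpr3 whatever the strand setting. Itpr3os lies on the opposite strand. Whether reads were counted by strand is not known, so reads of genes that overlap on opposite strands cannot be told apart either.

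The 3 inositol trisphosphate receptors moved apart in DDC. This grouping by gene family, like those that follow, was made after the values were seen. Itpr1 averaged 14.7 FPKM in R15, 7.88 in DDC and 14.1 in Control, and Itpr2 averaged 8.78, 6.00 and 8.59 FPKM in the same groups. Both were lower in DDC than in Control, with log2 changes of -0.76 for Itpr1 (adjusted p = 1.2e-05) and -0.45 for Itpr2 (adjusted p = 0.00012). Itpr3 held 47.0 ± 0.894% of the family's summed FPKM in R15, 66.0 ± 1.44% in DDC and 50.2 ± 4.44% in Control. The share was 15.8 percentage points higher in DDC than in Control, 19.0 points lower in R15 than in DDC and 3.23 points lower in R15 than in Control. Since all 4 DDC libraries were above Control for Itpr3 and below it for Itpr1 and Itpr2, the DDC and Control shares could not overlap, and the shares are given with no test.

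**Figure D3:**
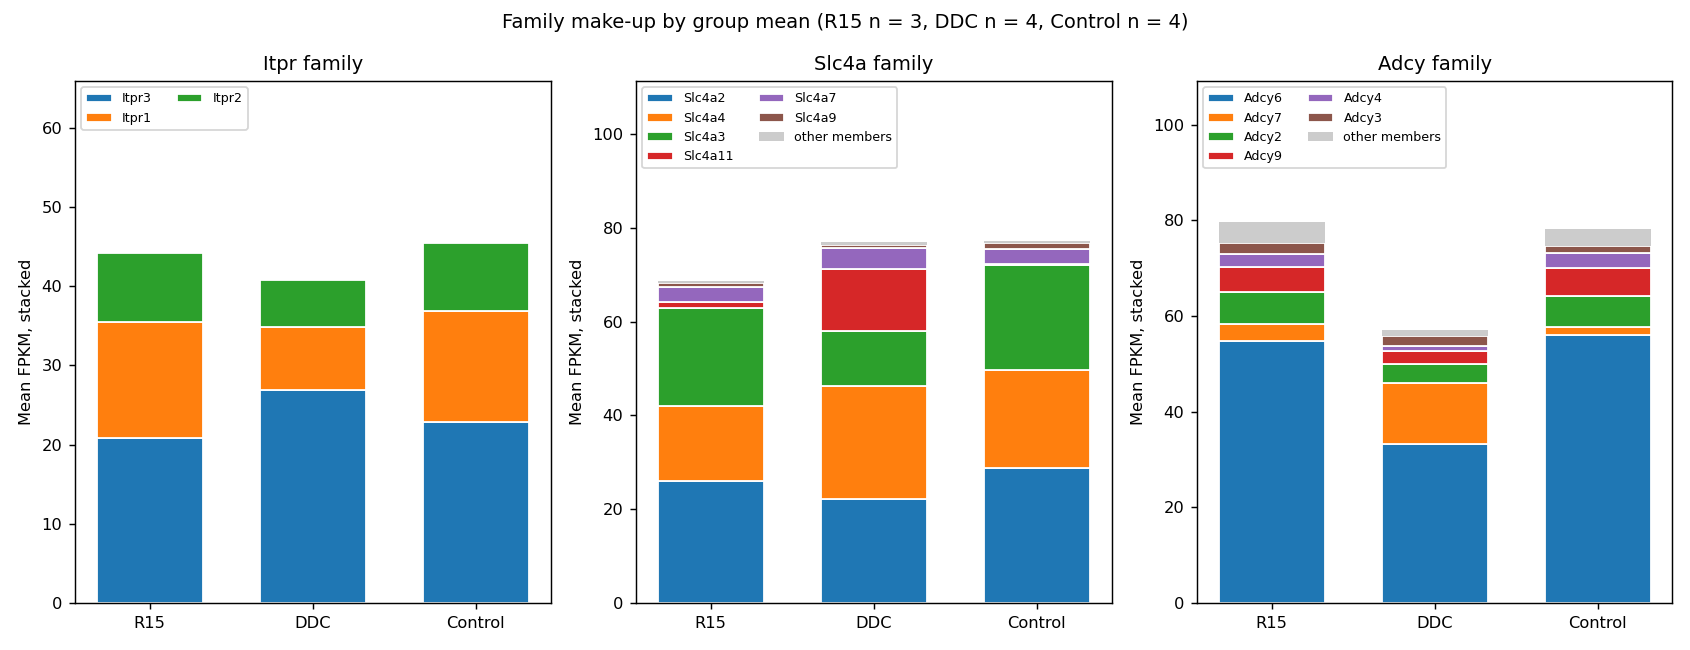
Mean FPKM of the members of 3 gene families (inositol trisphosphate receptors, Slc4a transporters and adenylyl cyclases) in R15, DDC and Control, stacked within each bar (n = 3, 4 and 4, no errors drawn). In the inositol trisphosphate receptor family, Itpr3 made up 66.0% of the DDC bar, 47.0% of the R15 bar and 50.2% of the Control bar.

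Cftr (ENSMUSG00000041301, chr6:18170687-18322768, plus strand), the cAMP-gated chloride channel, was higher in DDC. Its FPKM was 17.9, 16.6 and 14.9 in R15, 29.3, 27.0, 24.4 and 21.4 in DDC, and 7.89, 12.8, 25.9 and 9.94 in Control. DDC and Control overlapped through Control 3 alone, at 25.9 FPKM, which is also the library with the gastric mucous genes. DDC averaged 25.5 ± 3.42 FPKM and Control 14.1 ± 8.09, a log2 change of 0.94 ± 0.28 (95% interval 0.31 to 1.56, adjusted p = 0.014). Without Control 3 it was 1.26 (adjusted p = 9e-05), and over all alternatives that p ranged from 9e-05 to 0.041. The part of gastric mucous, intestinal epithelial and pancreatic RNA in the level of Cftr was not tested. The antisense gene that overlaps Cftr, Gm15592, was at most 0.0169 FPKM.

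R15 held an intermediate amount of Cftr, 16.5 ± 1.53 FPKM, with all 3 libraries below all 4 DDC libraries. The log2 change in R15 against DDC, -0.60 ± 0.30, missed the threshold (interval -1.27 to 0.08, adjusted p = 0.11), as did R15 against Control (0.34, adjusted p = 0.49). Both calls turned on Control 3, which enters the first through the spread that the groups share. Without it, R15 was lower than DDC (-0.60, adjusted p = 0.0071, range 0.0028 to 0.24 over alternatives) and higher than Control (0.66, adjusted p = 0.047, range 0.047 to 0.8). R15 was also lower than DDC with only these groups in the fit (adjusted p = 0.0028) and without the 5 libraries with pancreatic transcripts (-0.46, adjusted p = 0.02).

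Ano1 (ENSMUSG00000031075, chr7:144588549-144751974, minus strand), the calcium-activated chloride channel, stood above Cftr in FPKM in every library. Its FPKM was 71.5, 64.0 and 73.4 in R15, 60.0, 57.3, 66.1 and 56.7 in DDC, and 79.8, 69.3, 63.5 and 71.8 in Control. DDC lay lowest and overlapped both other groups through DDC 3. It was lower in DDC than in Control, at -0.24 ± 0.08 (95% interval -0.41 to -0.07, adjusted p = 0.019), and higher in R15 than in DDC, at 0.21 ± 0.08 (adjusted p = 0.046). R15 and Control gave -0.03 (interval -0.21 to 0.16, adjusted p = 0.85). Both calls were near the threshold. The first was lost in 5 of 25 alternatives. Among them were those without DDC 2 (-0.22, adjusted p by limma 0.0514) or DDC 4 (-0.21, adjusted p by limma 0.0521), and the stricter threshold of 0.01. Without the 5 libraries with pancreatic transcripts, where Control 4 is the sole Control, the change was -0.26 and thus no smaller. The second was lost in 12 of 24 alternatives (range 0.012 to 0.17), among them those without Control 2, Control 4, DDC 1, DDC 2, DDC 4, R15 1 or R15 3 (log2 0.17 to 0.21, adjusted p by limma 0.057 to 0.15).

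**Figure D4:**
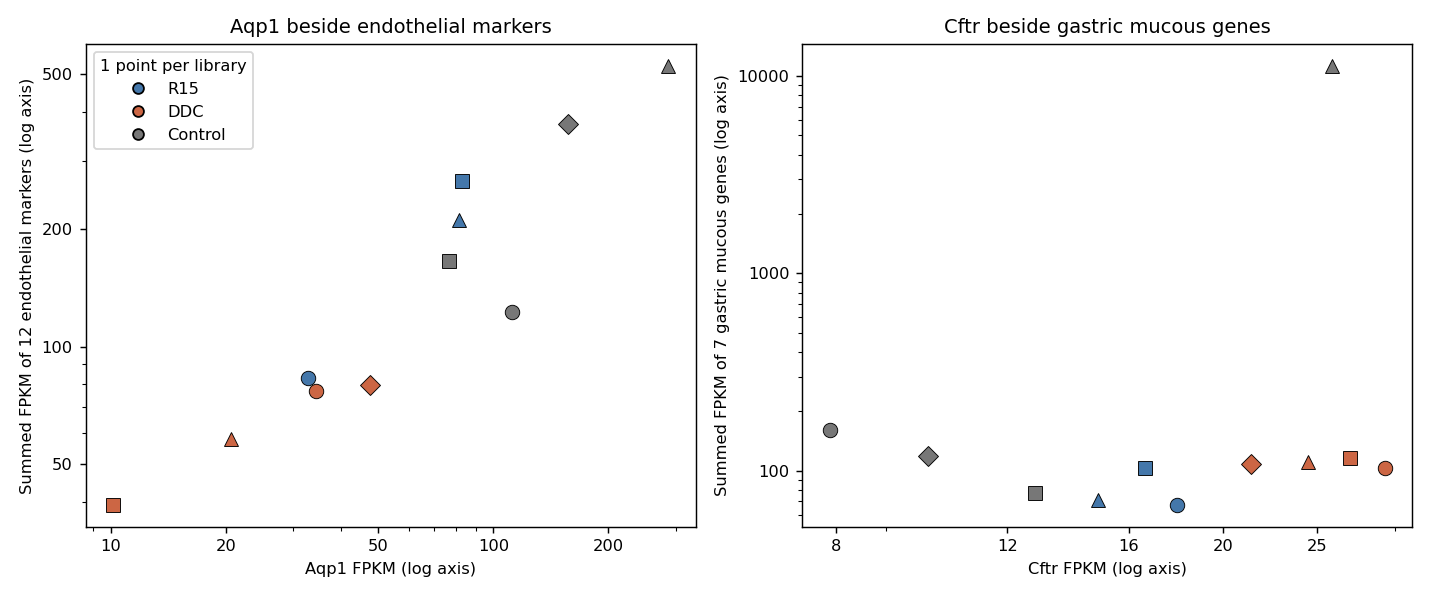
Aqp1 beside the summed FPKM of 12 endothelial markers (left) and Cftr beside that of 7 gastric mucous genes (right), 1 point per library, on logarithmic axes; the marker shape is the replicate number. Aqp1 and the endothelial markers were both highest in Control 3 (286 and 525 FPKM) and both lowest in DDC 2 (10.1 and 39.3 FPKM).

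Aqp1 (ENSMUSG00000004655, chr6:55336432-55348555, plus strand), a water channel of cholangiocytes and also of endothelium, was much lower in DDC. Its FPKM was 32.8, 82.6 and 81.4 in R15, 34.3, 10.1, 20.6 and 47.6 in DDC, and 112, 76.7, 286 and 157 in Control. Every DDC library was below every Control library, and R15 overlapped both groups. DDC averaged 28.2 ± 16.3 FPKM and Control 158 ± 91.7, a log2 change of -2.48 ± 0.53 (95% interval -3.66 to -1.30, adjusted p = 0.0021). The change had the same direction in every alternative (adjusted p 0.0013 to 0.059) and missed the threshold where the 5 libraries with pancreatic transcripts were left out, which leaves Control 4 as the sole Control (-2.80, adjusted p = 0.059). In R15 against DDC the change was 1.28 ± 0.57 (adjusted p = 0.075) and in R15 against Control -1.20 (interval -2.47 to 0.08, adjusted p = 0.20). R15 was called higher than DDC without DDC 4 (1.59, adjusted p = 0.039) or R15 1 (1.71, adjusted p = 0.039), and with libraries rescaled to one total (1.39, adjusted p = 0.0479), over a range of 0.039 to 0.21.

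Endothelial markers moved with Aqp1 in these libraries. Of the 12, 10 were lower in DDC than in Control (beside 31.9% of all genes), 9 were higher in R15 than in DDC (beside 33.4%), and 0 passed in R15 against Control at a median of -0.44. Kdr, the VEGF receptor of endothelium, had 5.66, 17.8 and 14.6 FPKM in R15, 3.97, 0.875, 1.87 and 2.97 in DDC, and 8.38, 12.8, 44.4 and 31.9 in Control. In each group the library highest in Kdr was also the highest or the next highest in Aqp1. The part of endothelial RNA in the Aqp1 difference was not tested. Among aquaporins, Aqp1 made up 82.1% of the summed FPKM in R15 (74.5 to 86.5%), 61.6% in DDC (44.0 to 75.3%) and 86.5% in Control (80.8 to 93.5%). Aqp5 averaged 6.95 FPKM in R15, 10.0 in DDC and 15.1 in Control. Its Control libraries ran from 6.26 to 28.8 FPKM and spanned all DDC libraries (8.44 to 11.4).

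Slc4a2 (ENSMUSG00000028962, chr5:24423837-24440950, plus strand), which encodes AE2, was lower in DDC by a small and even amount. Its FPKM was 25.9, 25.5 and 26.4 in R15, 21.7, 22.4, 22.0 and 22.1 in DDC, and 30.7, 26.2, 27.2 and 30.7 in Control. The 4 DDC libraries lay within 1 FPKM of each other and below every other library. DDC averaged 22.1 ± 0.275 FPKM and Control 28.7 ± 2.34, a log2 change of -0.36 ± 0.05 (adjusted p = 0.00014). R15 was higher than DDC, at 0.22 ± 0.06 (adjusted p = 0.0054). R15 against Control missed the threshold (-0.14, interval -0.26 to -0.02, adjusted p = 0.14) and passed it without Control 2 (-0.18, adjusted p = 0.04; range 0.04 to 0.32 over alternatives). Exons of Slc4a2 overlap those of Fastk on the opposite strand, which had 13.4 to 14.6 FPKM in R15, 14.6 to 15.2 in DDC and 14.9 to 16.3 in Control. Among its relatives, the sodium bicarbonate cotransporter gene Slc4a4 averaged 16.2 FPKM in R15, 24.3 in DDC and 21.1 in Control. Its Control libraries ran from 10.4 to 36.3 FPKM and spanned all DDC libraries (22.2 to 27.3). The exchanger gene Slc4a3 averaged 20.8 FPKM in R15, 11.7 in DDC and 22.3 in Control.

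Slc5a1 (ENSMUSG00000011034, chr5:33104219-33162872, plus strand), the sodium-glucose cotransporter SGLT1, was lowest in DDC and intermediate in R15. Its FPKM was 85.0, 67.6 and 91.7 in R15, 59.4, 54.7, 52.0 and 47.8 in DDC, and 107, 127, 95.01 and 121.5 in Control. The 3 groups did not overlap. R15 averaged 81.4 ± 12.4 FPKM, DDC 53.5 ± 4.87 and Control 113 ± 14.5. The log2 change was -1.06 ± 0.12 in DDC against Control (adjusted p = 2.6e-05) and 0.59 ± 0.13 in R15 against DDC (adjusted p = 0.0023). In R15 against Control it was -0.47 ± 0.13 (95% interval -0.75 to -0.19, adjusted p = 0.0457). This last call was lost in 17 of 25 alternatives, among them those without Control 1, Control 2, Control 4, DDC 1, DDC 2, DDC 3, DDC 4, R15 1 or R15 2 (log2 -0.50 to -0.34, adjusted p by limma 0.0548 to 0.13), and over all alternatives the value lay between -0.67 and -0.34 (adjusted p by limma 0.032 to 0.22). Slc5a1 made up 89.6% of the summed FPKM of its Slc5a family in R15, 90.0% in DDC and 92.8% in Control.

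Ggt1 (ENSMUSG00000006345, chr10:75561604-75586200, plus strand), the apical enzyme that starts the breakdown of glutathione in bile, was also lower in DDC. Its FPKM was 6.58, 6.61 and 5.62 in R15, 3.79, 4.51, 4.44 and 4.12 in DDC, and 6.07, 6.90, 7.35 and 6.25 in Control. All DDC libraries lay below all others, and R15 and Control overlapped. The log2 change was -0.55 ± 0.07 in DDC against Control (adjusted p = 9.8e-05), 0.48 ± 0.08 in R15 against DDC (adjusted p = 0.00052) and -0.07 in R15 against Control (interval -0.25 to 0.11, adjusted p = 0.58). Its relative Ggt6 was at a higher level, with 12.8 FPKM in R15, 5.90 in DDC and 8.47 in Control.

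Slc10a2 (ENSMUSG00000023073, chr8:5085623-5105232, minus strand), the apical sodium-dependent bile acid transporter, did not pass in any comparison. Its FPKM was 14.7, 18.8 and 13.2 in R15, 13.3, 15.3, 14.4 and 20.6 in DDC, and 15.8, 8.32, 10.7 and 12.5 in Control. All groups overlapped, with 3 of the 4 Control libraries below every DDC and every R15 library. DDC averaged 15.9 ± 3.22 FPKM and Control 11.8 ± 3.16, a log2 change of 0.41 ± 0.19 (95% interval -0.01 to 0.84, adjusted p = 0.079). Without Control 1 it was 0.55 and passed (adjusted p = 0.021; range 0.021 to 0.31 over alternatives). Control 1 is one of the 2 libraries with more RNA of intestinal epithelial genes (157.2 FPKM). The other, Control 3, had 260.5 FPKM of these genes and 10.7 FPKM of Slc10a2. Control 1 also had the largest share of pancreatic acinar genes, 1.1% of reads. The part of such RNA in the level of Slc10a2 was not tested. R15 differed from DDC by -0.02 ± 0.20 (adjusted p = 0.93) and from Control by 0.39 (interval -0.07 to 0.85, adjusted p = 0.24).

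By level, the order of the group means in R15 was Slc5a1, Ano1, Aqp1, Slc4a2, Itpr3, Cftr, Slc10a2, Sctr, Ggt1 and Gpbar1. In DDC it was Ano1, Slc5a1, Aqp1, Itpr3, Cftr, Slc4a2, Slc10a2, Sctr, Ggt1 and Gpbar1. In Control it was Aqp1, Slc5a1, Ano1, Slc4a2, Itpr3, Cftr, Slc10a2, Sctr, Ggt1 and Gpbar1. Aqp1 was thus first in Control and in the third place in R15 and DDC. Neighbours in this order whose libraries overlapped in R15 were Slc5a1 and Ano1, Ano1 and Aqp1, Cftr and Slc10a2, and Slc10a2 and Sctr. In DDC they were Ano1 and Slc5a1, Aqp1 and Itpr3, Itpr3 and Cftr, and Cftr and Slc4a2. In Control they were Aqp1 and Slc5a1, Itpr3 and Cftr, Cftr and Slc10a2, and Slc10a2 and Sctr. Summed over the 10, FPKM lay between 289 and 338 in R15, 229 and 261 in DDC, and 361 and 547 in Control.

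The genes nearest to each in pattern were found as those with the smallest root mean square distance of centred log2(FPKM + 1) over the 11 libraries, among 10003 candidates with mean FPKM of at least 5. For Aqp1 these were Clec4g (0.36), a gene of the endothelial list, and Cldn5 (0.38), the claudin of endothelial tight junctions. For Cftr they were Gm15421 (0.26) and Bdh1 (0.27), for Slc5a1 Rab11fip4 (0.0814) and Pkia (0.11), and for Ggt1 Zfp790 (0.0827) and Mpv17 (0.0845). For Slc4a2 they were Sowahb (0.0504) and Retreg1 (0.0554), for Ano1 Anxa4 (0.0665) and Elmo3 (0.0689), and for Itpr3 Gcnt2 (0.0503) and Tbrg1 (0.0547). For Slc10a2 they were Efnb2 (0.16) and Snora33 (0.17), and for Sctr 2610301B20Rik (0.11) and Ankrd13d (0.11). Genes that vary little between libraries have small distances to many others, so the distances are not comparable between the 9.

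**Figure D5:**
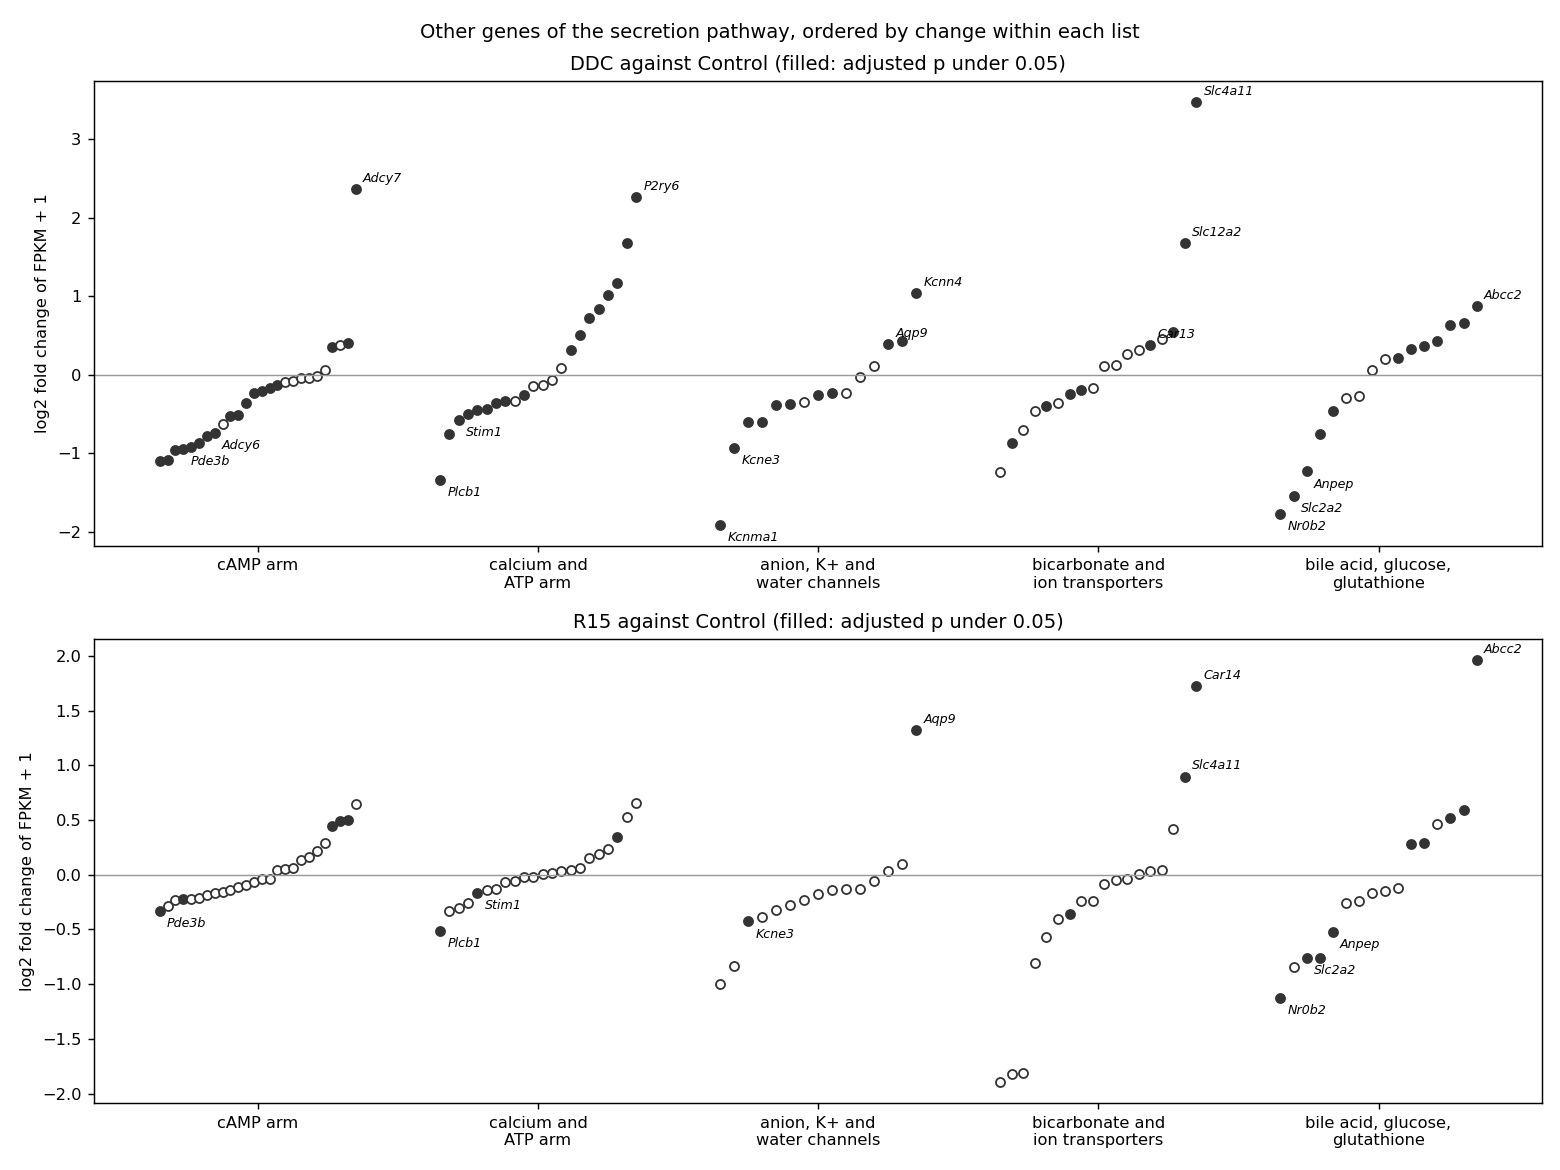
Log2 changes of the other secretion pathway genes in DDC against Control (top) and R15 against Control (bottom), by list and ordered by change, 1 point per gene, filled where past the threshold. In DDC against Control, 15 of the 26 genes of the cAMP list were lower and 3 higher, and in the bicarbonate and ion transporter list 4 were lower and 4 higher.

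Of 121 further genes of the same machinery, in 5 lists by role, 97 passed the filter. In DDC against Control 25 were higher and 41 lower, 68.0% in all beside a background of 65.4%, with a median of -0.20 beside 0.003 for all genes. In R15 against DDC 33 were higher and 20 lower (54.6% beside a background of 62.2%, median 0.06 beside 0.035), and in R15 against Control 12 were higher and 10 lower (22.7%, median -0.09, beside a background of 9.58% and a median of 0.045). The last count was 12 without Control 1 (beside 831 of all 15203 genes tested) and 11 without R15 1 (beside 660 of all 15189). In the main fit 1463 of all 15264 genes passed. Leaving out the 5 libraries with pancreatic transcripts leaves 2 R15 libraries and 1 Control library, too few for a count of these genes.

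The cAMP list held the genes around Sctr and Cftr. In DDC against Control 15 of 26 were lower and 3 higher, 69.2% in all beside the background of 65.4% (33.5% higher, 31.9% lower). In R15 against DDC 13 were higher and 2 lower, 57.7% in all beside 62.2% (33.4% higher, 28.8% lower). Pde3b, a phosphodiesterase that breaks down cAMP, averaged 10.9 FPKM in R15, 6.82 in DDC and 14.1 in Control, with log2 changes of -0.94 in DDC against Control and 0.61 in R15 against DDC. The adenylyl cyclase gene Adcy9 averaged 5.12 FPKM in R15, 2.72 in DDC and 5.75 in Control, and was lower in DDC than in Control at -0.86. Adcy6, the most abundant adenylyl cyclase gene, averaged 54.8 FPKM in R15, 33.1 in DDC and 56.1 in Control. Adcy7, known from blood cells, averaged 3.51 FPKM in R15, 12.9 in DDC and 1.70 in Control, while 11 of the 14 macrophage markers, beside 33.5% of all genes, were also higher in DDC than in Control; their part was not tested. Adcy6 and Adcy7 were chosen after their values were seen.

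In the calcium and ATP list, the genes around Itpr3 and Ano1, 8 of 22 were higher and 9 lower in DDC against Control, 77.3% in all beside 65.4% of all genes. Plcb1, a phospholipase that makes inositol trisphosphate, averaged 1.89 FPKM in R15, 0.639 in DDC and 3.13 in Control. Its log2 change was -1.33 in DDC against Control and -0.52 in R15 against Control, both past the threshold. Stim1, the calcium sensor of the endoplasmic reticulum, averaged 21.5 FPKM in R15, 15.9 in DDC and 24.2 in Control. Among genes chosen after their values were seen, the nucleotide receptor gene P2ry6 averaged 19.5 FPKM in DDC and 3.36 in Control, and P2ry12 3.88 FPKM in DDC and 0.516 in Control. Macrophages also express such receptors, and their part in these values was not tested.

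Among the channels other than the 10 genes, 3 of 15 were higher and 8 lower in DDC against Control, 73.3% in all beside 65.4% of all genes. Kcne3, a regulatory subunit of potassium channels, averaged 117 FPKM in R15, 82.3 in DDC and 158 in Control, with log2 changes of -0.93 in DDC against Control, 0.50 in R15 against DDC and -0.43 in R15 against Control, all past the threshold. Kcnma1, the large-conductance calcium-activated potassium channel, averaged 4.99 FPKM in R15, 0.983 in DDC and 6.46 in Control. Aqp9, a water and glycerol channel known from hepatocytes, was higher in R15 than in both others, with 2.41 FPKM in R15, 0.773 in DDC and 0.358 in Control.

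Among bicarbonate and ion transporters, 4 of 18 were higher and 4 lower in DDC against Control, 44.4% in all beside 65.4% of all genes. Slc4a11, a relative of Slc4a2, had the largest change of the genes named, with 1.38 FPKM in R15, 13.2 in DDC and 0.284 in Control, and a log2 change of 3.47 in DDC against Control (adjusted p = 1.9e-08). Car13, a cytosolic carbonic anhydrase, averaged 15.2 FPKM in R15, 19.4 in DDC and 14.7 in Control. Car14, a membrane-bound one, averaged 2.79 FPKM in R15, 0.224 in DDC and 0.126 in Control, and was higher in R15 than in Control at 1.72. Slc12a2, the basolateral sodium-potassium-chloride cotransporter, chosen after its values were seen, averaged 40.2 FPKM in DDC and 12.8 in Control.

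Among genes of bile acid, glucose and glutathione handling, 7 of 16 were higher and 5 lower in DDC against Control, 75.0% in all beside 65.4% of all genes. Slc2a2, the glucose transporter GLUT2, averaged 65.1 FPKM in R15, 37.0 in DDC and 109 in Control. As with Slc5a1, its changes passed in all 3 comparisons: -1.54 in DDC against Control, 0.77 in R15 against DDC and -0.76 in R15 against Control. Its relative Slc2a1, chosen after its values were seen, was instead highest in DDC. Slc2a1 averaged 33.2 FPKM in R15, 46.9 in DDC and 36.2 in Control. Anpep, an aminopeptidase that acts after Ggt1 in glutathione breakdown, averaged 43.3 FPKM in R15, 26.0 in DDC and 62.5 in Control. Nr0b2, the bile acid-induced repressor SHP, averaged 6.85 FPKM in R15, 3.91 in DDC and 16.1 in Control. Abcc2, a canalicular export pump of hepatocytes, averaged 6.18 FPKM in R15, 2.33 in DDC and 0.792 in Control. Hepatocyte markers summed to between 2103 and 2918 FPKM in R15, 1283 and 1943 in DDC, and 3251 and 4002 in Control. That sum was highest in Control and lowest in DDC, as were Slc2a2 and Nr0b2. Alb made up most of it, with means of 1731 FPKM in R15, 1028 in DDC and 2773 in Control, and other markers differed in order. Of the 18 markers tested, 5 were higher and 6 lower in DDC against Control (beside 33.5% and 31.9% of all genes). In R15 against Control 5 were higher, among them Fgb and Serpina1a, and 2 lower, among them Alb (beside 6.87% and 2.72%). Abcc2 was higher in R15 than in Control (1.97), as were those 5 markers, and against the order of the sum. The part of hepatocyte RNA in the values of Slc2a2, Nr0b2 and Abcc2 was not tested.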

How the data were processed

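Libraries were polyA RNA from stranded mRNA kits, per the labels' protocols. FPKM values, with gene lengths and coordinates, are the authors' own, deposited as a single table. Build mm10 comes from the submitters' processing notes; aligner, counter and strand setting: not given in the sources used here. Whole reads could be recovered from the deposited FPKM for 100% of nonzero values (tolerance 0.001, length plus 1), and gave the depths and 1 alternative. A value of FPKM 0.9 to 1.1 rests on a median of 122.5 reads. Mitochondrial genes (37) were at 0 throughout.

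Tests used log2(FPKM + 1), genes that reached FPKM 1 in 3 or more libraries, and 11 libraries and 3 groups in 1 model of limma 3.58.1 (eBayes with trend, R 4.3.3), 2-sided, with Benjamini-Hochberg adjustment over 15264 genes at 0.05. The steps were tested on simulated data. Overlapping genes were read from GENCODE M21.

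The 10 genes and all lists were chosen with earlier results of these data known. Named pathway genes were the 2 of each list with the smallest p in DDC against Control, and those past the threshold in R15 against Control with a log2 change of at least 1; exceptions are named in the text. Alternatives covered the pseudocount, filter, scaling, variance model, groups in the fit, the replicate number as a block, limma voom on whole reads, a stricter threshold and libraries left out. The labels pair no libraries, so the main model has no pairing.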

Additional observations from a re-analysis of the deposited data

Results flagged for a closer look

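Gpbar1 in Control 4, at 0.05534 FPKM (4 reads), stood apart from the other 3 Control libraries, all at 0. With those 3 tied at 0, any read in the fourth library would have done so, and 4 reads are 1 more than a count of 0 allows. Of the groups of 4 libraries, 20 were checked, and chance flags about 1 in 20.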

How the results depend on the processing

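Of the alternatives for single genes, 606 kept direction and call, 37 lost the call, 9 gained it and 14 turned sign; of the counts, 124 stayed within 1.5 times and 24 did not. All 24 were in R15 against Control. There, the count of the 10 genes past the threshold was 1 in the main fit. It was 0 with no filter on low values (beside 1260 of all 29687 genes tested) and with libraries rescaled to one total (1071 of 15284). Quantile normalization (1055 of 15301) and only the 2 groups compared (317 of 15264) also gave 0. So did the replicate block (693 of 15264) and an adjusted p under 0.01 (346 of 15264). With 1 library left out it was 0 to 2 (beside 660 to 2184 of all genes). With so few genes, counts of 0 beside these shares are no result about the 10. The count of other pathway genes was 22 in the main fit (beside 1463 of all 15264 genes tested). It was 7 with only the 2 groups compared (beside 317 of all genes) and 12 with the replicate block (beside 693). At an adjusted p under 0.01 it was 7 (beside 346), and with 1 library left out 11 to 31 (beside 660 to 2184). Leaving out Control 1, 2 and 3 together, chosen after seeing the data, gave 0 and 6. This leaves Control 4 as the sole Control library, too few for a count of these genes, so neither number is a result.

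The 14 changes of sign were all in values that missed the threshold. Sctr in DDC against Control was -0.019 without the pancreatic libraries and -0.037 to 0.201 with 1 library left out, negative without Control 3. Ano1 in R15 against Control was 0.002 with libraries rescaled to one total, 0.038 with quantile normalization, and -0.079 to 0.031 with 1 library left out, positive without Control 1 (0.029) or R15 2 (0.031). Slc10a2 in R15 against DDC was 0.086 rescaled to one total, 0.055 with the replicate block, 0.008 without the pancreatic libraries, and -0.161 to 0.099 with 1 library left out, positive without DDC 4 (0.099), R15 1 (0.006) or R15 3 (0.082). Ggt1 in R15 against Control was 0.068 without the pancreatic libraries and 0.001 without Control 1, 2 and 3. The causes were not tested. Rescaling to one total moved the median of all genes to -0.07 in DDC against Control, 0.14 in R15 against DDC and 0.07 in R15 against Control. Same-numbered libraries share a number only: of 10 pairs, 3 had deviations correlated above 0.1 (r -0.282 to 0.3). Depth limits Gpbar1 alone, since the other 9 genes had at least 747 reads in every library.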
